A study of Mus musculus with 24 samples.

Results

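Dormant tumor cells were compared with their parental cells in a mouse melanoma and in a mouse leukemia, and the question was which genes answered dormancy differently in the 2 tumors. The quantity described is the dormancy change in melanoma (B16-D minus B16-M) minus the dormancy change in leukemia (J365-p20 minus M0-p20), taken gene by gene from 14 of the 24 microarrays of the series, and 13 of these entered the main results. The arrays were chosen by line name, and no measured value chose them. B16-M is the parental B16-F1 melanoma line carrying green fluorescent protein (3 arrays), and B16-D is the dormant line recovered from mice vaccinated with irradiated melanoma cells that express GM-CSF (4 arrays). M0-p20 was read as the parental DA1-3b myeloid leukemia line (4 arrays). J365-p20 is the line of DA1-3b cells recovered after a year of dormancy that followed vaccination with irradiated leukemia cells that express interleukin-12 (3 arrays). Both dormant lines were isolated from syngeneic mice whose tumor had been held by immunotherapy, and all 4 lines were grown in culture before RNA was taken, so the arrays show lasting differences of cultured lines and not cells at rest in the animal. Each dormant line is a single line, the vaccines differed between the models, and tumor type, vaccine and line cannot be told apart. The meaning of M0 and p20 was not given in the labels, and the title of B16-D replicate 0 reads 16D. B16-D replicates 1, 2 and 3 carry a date in their titles and no array of the other compared lines does, so what the date marks and the melanoma dormancy change partly cannot be told apart.

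Tumor dormancy is the persistence of a small number of tumor cells without overt growth, often under the control of immune cells. Interferons are released by immune cells and signal through the receptor-bound kinases JAK and factors such as STAT2 and IRF9 to switch on a common set of antiviral and antigen-presenting genes. Tumor cells also carry surface ligands that restrain T cells, and growing cells depend on ribosome, nucleotide and energy metabolism.

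Levels are given as log2 intensity minus the 75th percentile of the same array, so 0 is the brightness of that percentile and a step of 1 is a doubling. A gene was tested if its probe was well above background on 3 or more arrays of each model, which left 19853 genes. Between 46.0% and 55.2% of the spots were well above background on the 13 arrays. On B16-D replicate 2 the share was 90.3%, and this array was left out of every value unless it is named. The cells carried the markers of their labels: 10 of 11 melanocytic genes were above background on every B16 array and 12 of 12 hematopoietic genes on every leukemia array, while 5 of the 11 melanocytic genes were above background on every leukemia array too. Of the fibroblast, endothelial, macrophage and lymphoid markers 1 of 8, 0 of 6, 2 of 6 and 2 of 8 were above background on every B16 array and 0, 1, 4 and 3 on every leukemia array. Nothing in the labels says that the arrays of a line came from separate cultures, so p-values measure the spread between arrays, which may be technical.

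The promoters of 3 genes that fell in dormant melanoma are shown first, picked after the search because each holds the interferon-stimulated response element, read here as a pair of GAAA runs with any 2 bases between them, or on the other strand a pair of TTTC runs with any 2 bases between them. They run from 100 bases before to 50 after the annotated transcription start, are RefSeq sequence of GRCm38.p6 on the minus strand, and carry the element in capitals, overlapping matches merged (Ddx58 holds the TTTC form, and Oas1a and Oas1g the GAAA form with 2 overlapping matches each).
Ddx58, chr4:40239776-40239925: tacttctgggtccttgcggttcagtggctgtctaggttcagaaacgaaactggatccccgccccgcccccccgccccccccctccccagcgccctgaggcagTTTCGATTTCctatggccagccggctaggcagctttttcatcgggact
Oas1a, chr5:120907476-120907625: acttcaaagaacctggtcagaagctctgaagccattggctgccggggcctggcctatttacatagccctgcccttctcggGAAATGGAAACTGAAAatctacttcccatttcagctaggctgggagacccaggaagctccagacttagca
Oas1g, chr5:120887564-120887713: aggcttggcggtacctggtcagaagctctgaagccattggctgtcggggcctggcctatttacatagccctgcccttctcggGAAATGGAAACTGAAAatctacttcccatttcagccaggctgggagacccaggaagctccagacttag
Ddx58 encodes RIG-I, a sensor of viral RNA, and the Oas genes encode synthetases that activate an RNase against viral RNA. The element stood in 1131 of 32851 promoter windows of 300 bases (3.44%), and in 6 of the 20 tested interferon response genes that had a window (30%). Of the 6 list genes whose change differed between the models, named below, 3 had a window and 2 held the element. No match stood in the windows of Oas1f, Irf9, Trim25 and Ifngr1, which also fell in melanoma or differed between the models. Oas1a, Oas1f and Oas1g are related copies of the same gene family, so their probes may share signal.

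Across all genes tested, 265 had a dormancy change that differed between the models (limma, Benjamini-Hochberg adjusted p under 0.05; 1.33%). The change was the higher one in melanoma for 123 genes (0.62%) and in leukemia for 142 (0.715%). Alone, the melanoma change passed the threshold for 331 genes (1.67%) and the leukemia change for 322 (1.62%). As bulk RNA was measured, a lower level cannot be told apart as fewer cells with the transcript or less transcript per cell. In both models 24 genes passed. Of the melanoma list 7.25% passed in leukemia too, against 1.62% of all genes. Of the leukemia list 7.45% passed in melanoma too, against 1.67% of all genes. Of the 24, 11 moved the same way (0.0554% of the genes tested) and 13 moved in opposite directions (0.0655%). Of the 11, 4 rose (0.0201%) and 7 fell (0.0353%), and of the 13, 6 rose in melanoma and fell in leukemia (0.0302%) and 7 did the reverse (0.0353%). Among the 265 differences, 111 had a change past the threshold in melanoma alone, 107 in leukemia alone, 13 in both with opposite signs, 2 in both with the same sign and 32 in neither. So most of the calls came from a gene that passed in 1 tumor. All 265 were also called, with the same sign, when the slide was entered as a block, which raised the count to 464 (2.34%). Other settings lowered the count, to 126 in a fit of the 4 compared lines alone and to 50 with the replicate number as a block. At an unadjusted p under 0.05 the difference was met by 1573 genes. Simulated differences of 1 on the log2 scale were recovered for 24% of the genes and of 2 for 72%, so smaller differences are mostly not detectable with these arrays.

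**Figure D1:**
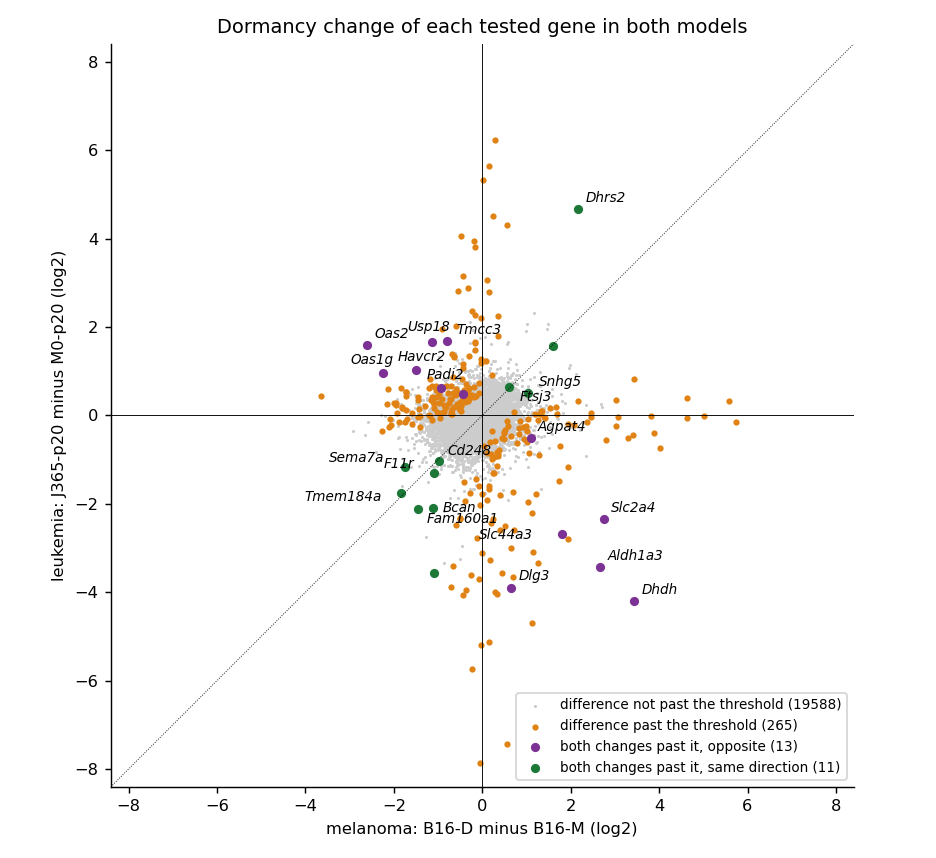
Dormancy change in melanoma (B16-D minus B16-M, log2, x axis) against the dormancy change in leukemia (J365-p20 minus M0-p20, log2, y axis), 1 point per gene tested (19853 genes). Genes whose change differed between the models lie mostly along 1 axis, and the 24 genes past the threshold in both models are split between 11 of the same and 13 of opposite direction.

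Genes with opposite changes came first, since they differ in direction and not in size alone. Of the 13, 12 have a gene symbol and are described here. In 6 of the 12 the melanoma change was downward and the leukemia change upward: the antiviral genes Oas2, Oas1g and Usp18, the T cell inhibitory receptor gene Havcr2, and Tmcc3 and Padi2. In the other 6 the melanoma change was upward and the leukemia change downward: Aldh1a3, Dhdh, Slc2a4, Slc44a3, Dlg3 and Agpat4. In all 12, the arrays of the dormant line lay apart from those of its parent in both models. The genes were chosen by p-values from these same arrays, which favors such a separation, so it is no further support.

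Usp18 encodes the protease that removes ISG15 from proteins and dampens signaling from the interferon receptor. Its level was -2.52, -2.25 and -2.20 on the B16-M arrays and -3.03, -3.60 and -3.75 on the B16-D arrays. In leukemia it was -1.37, -0.90, -1.08 and -1.32 in M0-p20 and 0.32, 0.65 and 0.50 in J365-p20. The dormant melanoma arrays were the lowest of the 13 and the dormant leukemia arrays the highest. Usp18 was 2.2-fold lower in dormant melanoma (log2 change -1.13 ± 0.25 SE, adjusted p = 0.0259) and 3.15-fold higher in dormant leukemia (1.66 ± 0.24, adjusted p = 0.000378), a difference of -2.79 ± 0.35 (adjusted p = 7.68e-05). Oas2 encodes another antiviral synthetase. It read -3.53, -3.19 and -3.37 in B16-M and -6.50, -6.06 and -5.36 in B16-D, where it was not well above background on any array, so that the drop is given as a bound. In leukemia Oas2 rose from -0.80, -1.11, -1.08 and -0.86 in M0-p20 to 0.52, 0.73 and 0.64 in J365-p20. Oas2 was thus at least 2.61-fold lower in dormant melanoma (adjusted p = 5.09e-06) and 3.02-fold higher in dormant leukemia (adjusted p = 0.000533). Oas1g went the same ways, at least 2.81-fold lower in dormant melanoma (adjusted p = 2.66e-06) and 1.93-fold higher in dormant leukemia (adjusted p = 0.0131). On the deviating array B16-D replicate 2, Oas2 read -3.45 and Oas1g -2.07, near the B16-M values, and with it the difference in Oas1g lost its call (adjusted p = 0.203). Oas1f, the third of the Oas1 copies among the largest differences, stood at 0.92, 1.14 and 0.72 in B16-M and -0.65, -1.83 and -1.13 in B16-D, and at 2.33, 1.58, 2.19 and 1.98 in M0-p20 and 3.05, 2.69 and 2.09 in J365-p20. Its melanoma arrays were apart and its leukemia arrays overlapped, and the difference was -2.72 ± 0.42 (adjusted p = 0.000915).

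Havcr2 encodes TIM-3, a receptor best known for restraining T cells and also found on myeloid leukemia cells. Its level was -0.51, -0.64 and -0.60 in B16-M and -1.82, -2.15 and -2.30 in B16-D. In leukemia it was -0.89, -1.55, -1.67 and -1.76 in M0-p20 and 0.065, -0.59 and -0.79 in J365-p20. The melanoma groups were separated by more than 1 log2 unit, whereas in leukemia the parental replicate 0 lay close to the dormant arrays. Havcr2 was 2.84-fold lower in dormant melanoma (adjusted p = 0.0011) and 2.04-fold higher in dormant leukemia (adjusted p = 0.0174), a difference of -2.54 ± 0.32 (adjusted p = 8.78e-05). Tmcc3, a gene for a membrane protein of the endoplasmic reticulum, went from 2.89, 2.94 and 3.18 in B16-M to 2.43, 2.20 and 1.98 in B16-D, and from -2.20, -2.22, -2.58 and -2.58 in M0-p20 to -0.59, -0.79 and -0.76 in J365-p20. Its difference was -2.48 ± 0.20 (adjusted p = 2.71e-07). Padi2, which encodes an enzyme that turns arginine residues of proteins into citrulline, changed by -0.94 ± 0.15 in melanoma (adjusted p = 0.00167) and by 0.62 ± 0.14 in leukemia (adjusted p = 0.028). All 3 B16-D arrays of Padi2 (1.04, 0.75 and 0.92) were below all 3 of B16-M (1.86, 1.78 and 1.88), and all 3 J365-p20 arrays (2.80, 2.84 and 2.73) above all 4 of M0-p20 (1.66, 2.37, 2.36 and 2.28).

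Aldh1a3 encodes a dehydrogenase that makes retinoic acid from retinal. It read -3.90, -3.73 and -3.70 in B16-M and -0.78, -1.25 and -1.30 in B16-D, a rise of 6.34-fold (adjusted p = 1.33e-05). In leukemia it was -3.20, -4.13, -3.65 and -3.91 in M0-p20 and not well above background on any J365-p20 array (-7.39, -7.04 and -7.00), at least 2.15-fold lower (adjusted p = 4.91e-08). The fitted difference between the 2 dormancy changes was 6.09 ± 0.38 on the log2 scale (adjusted p = 5.42e-09). It uses J365-p20 levels below background, so its size is uncertain. Dhdh, the gene of dihydrodiol dehydrogenase, was below background on every B16-M array (-6.82, -6.03 and -6.25) and above it on every B16-D array (-3.04, -2.81 and -2.92). In leukemia the pattern was turned round, from -1.18, -0.27, -0.46 and -0.60 in M0-p20 to -5.18, -4.62 and -4.71 in J365-p20. Dhdh was at least 3.95-fold higher in dormant melanoma (adjusted p = 1.33e-07) and at least 17.9-fold lower in dormant leukemia (adjusted p = 3.98e-10), since its J365-p20 arrays were below background too. Slc2a4 encodes GLUT4, the insulin-responsive glucose transporter. Its level went from -3.39, -4.16 and -3.18 in B16-M to -1.35, -0.61 and -0.50 in B16-D, 6.76-fold higher (adjusted p = 2.95e-05), and was at least 1.79-fold lower in J365-p20 than in M0-p20 (adjusted p = 4.82e-05). Slc44a3, a member of the choline transporter-like family, rose by 3.5-fold in dormant melanoma (adjusted p = 6.13e-05) and was at least 2.26-fold lower in dormant leukemia (adjusted p = 3.91e-08).

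Dlg3, which encodes a scaffold protein of cell junctions and synapses, was uneven in size between the models. It rose from 0.74, 0.55 and 0.73 in B16-M to 1.17, 1.35 and 1.48 in B16-D (1.58-fold, adjusted p = 0.0312), and fell from -0.50, -0.039, -0.10 and 0.086 in M0-p20 to -4.18, -4.12 and -3.79 in J365-p20 (14.9-fold, adjusted p = 1.27e-12). Most of its difference of 4.55 ± 0.21 therefore lay in leukemia. Agpat4, an acyltransferase gene of phospholipid synthesis, had the reverse balance, with a melanoma change of 1.10 ± 0.13 (adjusted p = 5.08e-05) and a leukemia change of -0.51 ± 0.12 (adjusted p = 0.0356).

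Oas2, Tmcc3, Aldh1a3, Dhdh, Slc2a4 and Slc44a3 passed in both models whichever single array was left out, among the omissions in which they were still tested. For the other 6 a change was lost without single arrays: Usp18 in melanoma without B16-M replicate 1 or 2 or B16-D replicate 1 or 3 (adjusted p from 0.0992 to 0.115), Havcr2 in leukemia without M0-p20 replicate 2 or 3 or J365-p20 replicate 0 (from 0.0623 to 0.155), Oas1g in leukemia without J365-p20 replicate 0 or 1 (0.11 and 0.0556), Padi2 in leukemia without any of the 3 J365-p20 arrays (from 0.0666 to 0.117), Agpat4 in leukemia without M0-p20 replicates 1, 2 or 3 or J365-p20 replicates 0 or 3 (from 0.0571 to 0.248), and Dlg3 in melanoma without any of the B16-M arrays or B16-D replicates 1 or 3 (from 0.0568 to 0.158). With the mean of all probes of a gene in place of the brightest probe, the leukemia changes of Padi2 and Agpat4 were not called (adjusted p = 0.536 and 0.607). The normexp background correction ended the calls of the melanoma changes of Usp18, Oas1g and Dlg3 (adjusted p = 0.281, 0.0632 and 0.0684) and of the leukemia changes of Slc2a4 and Agpat4 (0.118 and 0.14). Within each of the 3 slides, the difference of all 12 genes kept its sign. On slide 2, where the only B16-D array is replicate 2, the melanoma change kept its sign for 11 of the 12. The choice by p-value from these same arrays favors a kept sign, so it is no further support.

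**Figure D2:**
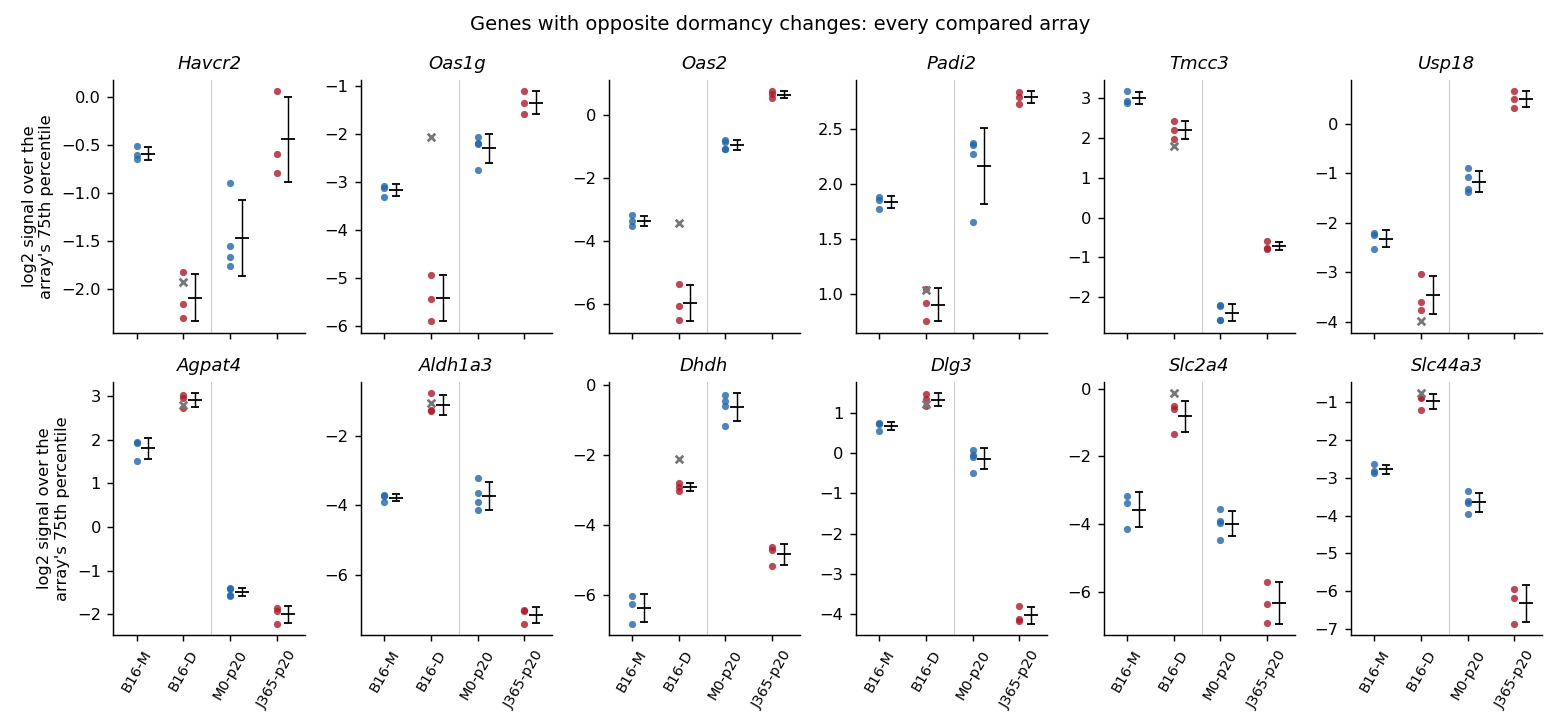
Level of the 12 genes with opposite dormancy changes on every array (log2 intensity minus the array's 75th percentile, y axis) in B16-M, B16-D, M0-p20 and J365-p20, with bars for the mean ± SD of each line. The grey cross is B16-D replicate 2, which is not part of the mean, and in each gene the dormant arrays lie on opposite sides of their parents in the 2 models.

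The interferon response had the largest median difference of the 38 gene lists, -0.84. Of 25 tested genes, 18 were lower in dormant melanoma and higher in dormant leukemia, 4 were higher in both, 3 lower in both and 0 the other way round. The median change was -0.70 in melanoma and 0.16 in leukemia, against -0.03 and -0.01 over all genes tested. The split over all genes was 19.5% lower in melanoma and higher in leukemia and 17.5% the other way round. In melanoma 7 of the 25 fell (0.876% of all genes did) and none rose, and in leukemia Usp18 alone passed. The change differed between the models for 6 genes, all of them lower in melanoma (0.715% of all genes): Usp18, Oas1a, Ddx58, Parp14, Irf9 and Ifi27. With the slide as a block 11 of the 25 passed (1.39%), and in a fit of the 4 compared lines alone 3 did (58 of all 19853 genes). With the replicate number as a block 0 passed (14 of all genes), and the median difference was -0.65. Without the filter on dim probes 4 of 35 passed (211 of 45616 genes).

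Among the effectors and sensors, Oas1a was 1.81, 2.13 and 2.32 in B16-M and 1.08, -0.10 and -0.23 in B16-D, with replicate 0 the highest of the dormant arrays, and it was 3.21, 3.23, 2.99 and 2.76 in M0-p20 and 3.89, 3.44 and 3.67 in J365-p20. Both models were separated array by array. Oas1a fell 3.59-fold in dormant melanoma (adjusted p = 0.000423), its leukemia change was 0.62 ± 0.24 (adjusted p = 0.296), and the difference was -2.46 ± 0.35 (adjusted p = 0.000369). Ddx58 fell from 0.077, 0.40 and 0.73 to -0.15, -0.99 and -0.94 in melanoma (adjusted p = 0.0107) and read 0.76, 1.37, 1.17 and 0.94 in M0-p20 and 1.31, 1.37 and 1.36 in J365-p20. Its leukemia arrays overlapped, and the difference was -1.38 ± 0.29 (adjusted p = 0.0185). Parp14, an ADP-ribosyltransferase gene induced by interferon, changed by -1.21 ± 0.21 in melanoma (adjusted p = 0.00344) and by 0.0055 in leukemia. For Irf9, which encodes the DNA-binding part of the factor that reads interferon signals, the changes were -0.73 and 0.38 with a difference of -1.11 ± 0.25 (adjusted p = 0.0314). Ifi27, an interferon-induced gene of mitochondria, had changes of -0.81 and 0.67 and a difference of -1.49 ± 0.35 (adjusted p = 0.0418). Stat2 and Trim25, which encode a STAT factor and a ubiquitin ligase that activates RIG-I, fell in melanoma by 0.995 and 0.82 (adjusted p = 0.0483 and 0.0165) with leukemia changes of 0.048 and 0.051. The interferon-gamma receptor gene Ifngr1 fell in melanoma by 0.79 (adjusted p = 0.0194) and changed by -0.16 in leukemia (adjusted p = 0.877).

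The other members of the pathway had differences that did not pass. Xaf1 differed by -2.17 ± 0.56 (adjusted p = 0.068), Irf7, the master factor of type I interferon production, by -1.21 ± 0.31 (adjusted p = 0.0702), and Isg15 by -0.81 ± 0.53 (adjusted p = 0.9). The type I receptor genes Ifnar1 and Ifnar2 had differences of 0.26 and -0.27, and the factors Irf1 and Irf3 of -0.10 and 0.086. Oasl1, another member of the synthetase family, was higher in both dormant lines without passing, with changes of 1.96 in melanoma and 1.07 in leukemia.

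Averaged over the 25 genes and set to the parental mean, the list lay between -0.21 and 0.22 on the B16-M arrays and at -0.27, -0.63 and -0.83 on the B16-D arrays, with replicate 0 the nearest to the parent. On the leukemia arrays it lay between -0.12 and 0.18 in M0-p20 and between 0.20 and 0.36 in J365-p20. The groups did not overlap in either model. Within the slides the median difference was -0.80, -1.08 and -0.93, and on slide 2 the only B16-D array is the deviating replicate 2. Without B16-D replicate 0 the median difference was -0.9998, and without the filter on dim probes it was -0.38 over 35 genes. The 6 calls became 2 without B16-M replicate 2 or B16-D replicate 3 and 3 without B16-M replicate 1, M0-p20 replicate 2 or 3 or any single J365-p20 array. The calls of Ddx58, Irf9, Ifi27 and Parp14 were less steady: Ddx58 lost its call without B16-M replicate 2, B16-D replicate 1 or 3 or J365-p20 replicate 1 (adjusted p from 0.0513 to 0.0724), while Irf9, Ifi27 and Parp14 lost theirs without 8, 10 and 11 of the 13 arrays in turn (up to 0.109, 0.142 and 0.127). Irf9 kept its call without B16-M replicate 0, B16-D replicate 1, M0-p20 replicates 0 and 1 and J365-p20 replicate 1, Ifi27 without B16-M replicate 0, B16-D replicate 0 and M0-p20 replicate 1, and Parp14 without B16-D replicate 1 and M0-p20 replicate 0.

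The same average differed among the second-generation lines derived from B16-D, measured on arrays of the same slides. It was -0.55 ± 0.09 (SD, n = 4) in B16-D-733 and -0.77 ± 0.18 (n = 3) in B16-D-739, near B16-D at -0.57 ± 0.28 (n = 3). In B16-D-735 it was 0.83 ± 0.23 (n = 3), above every array of B16-M. The low interferon level was thus not common to all lines that descend from B16-D; this contrast between the lines was not tested here. Tested blood cell markers in the B16 lines moved in both directions. Of 12 hematopoietic markers, 2 were above background on every B16 array and 5 on none, among them Ptprc (CD45) and Vav1. Of the 4 that were tested, Coro1a fell in melanoma (adjusted p = 0.000145), Il3ra rose (1.27, adjusted p = 0.0201), and Was and Cd48 changed by -0.33 and -0.62 (adjusted p = 0.522 and 0.746). The average of the 4, set to the parental mean, was -0.84, -0.58 and 0.04 on the B16-D arrays and between 0.15 and 0.56 in B16-D-735. Their part in the interferon values was not tested.

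**Figure D3:**
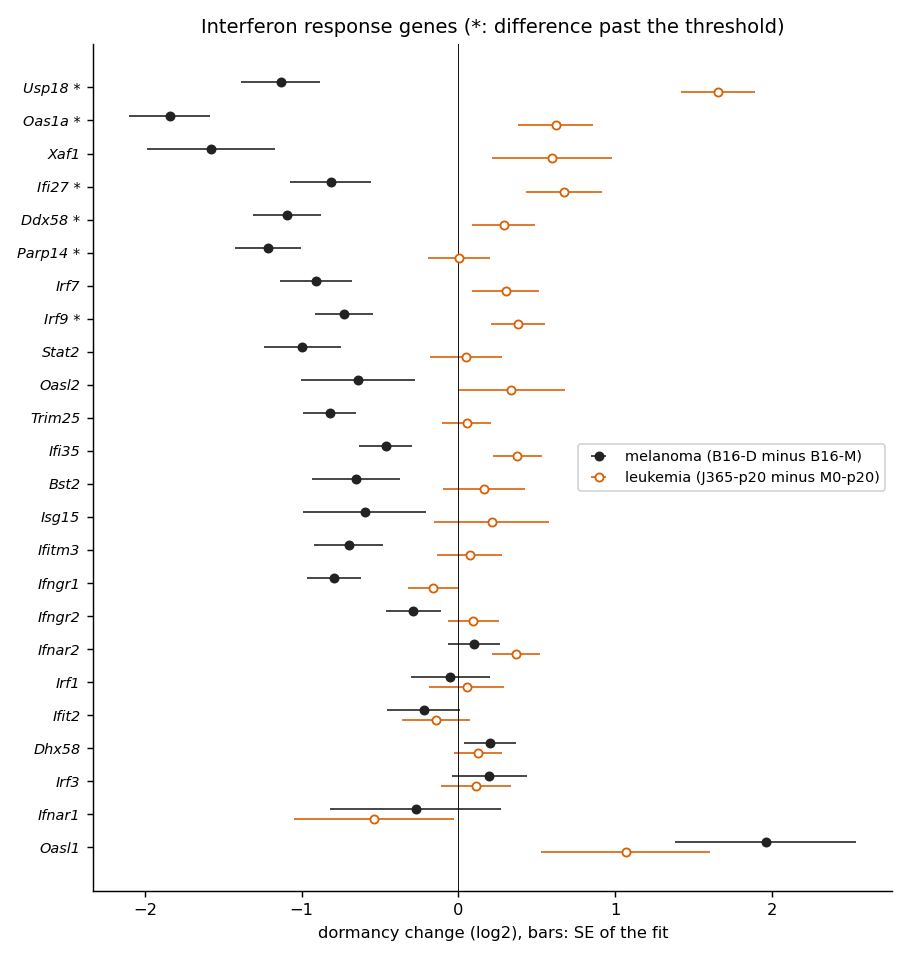
Dormancy change in melanoma and in leukemia (log2, x axis, with the standard error of the fit as bars) of 24 of the 25 tested interferon response genes (y axis), ordered by their difference. Genes marked * are the 6 whose change differed between the models, and 17 of the 24 drawn lie below 0 in melanoma and above 0 in leukemia.

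Among 10 tested genes of ligands and receptors that restrain immune cells, the change differed for Havcr2, given above, and Lgals3, in opposite directions (1.33% of all genes in either). Lgals3 encodes galectin-3, a sugar-binding protein that can restrain T cells. It read 5.05, 4.28 and 4.62 in B16-M and 7.55, 5.99 and 6.24 in B16-D, and 1.67, 3.67, 3.73 and 3.26 in M0-p20 and -0.69, 0.85 and 0.71 in J365-p20. The dormant arrays were above their parent in melanoma and below it in leukemia without overlap. The leukemia drop was 6.95-fold (adjusted p = 0.00371), the melanoma change 1.94 ± 0.53 (adjusted p = 0.0771) and the difference 4.74 ± 0.73 (adjusted p = 0.000833; 26.7-fold). H2-DMb1, the gene of a chain of the H2-DM chaperone that loads peptides on MHC class II, rose in melanoma from -3.18, -3.92 and -3.05 to 0.0068, -1.37 and -1.39 (adjusted p = 0.000413) and read 2.45, 3.16, 2.87 and 2.62 in M0-p20 and 2.45, 2.84 and 2.91 in J365-p20. It was the only 1 of 18 tested antigen-presentation genes whose change differed (2.51 ± 0.47, adjusted p = 0.00562; 0.62% of all genes in that direction); the class I genes H2-K1 and B2m had differences of 0.54 ± 0.35 and -0.66 ± 0.30 (adjusted p = 0.891 and 0.57). The group held 7 genes higher in both models, 6 lower in melanoma and higher in leukemia, 3 the other way round and 2 lower in both.

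Cholesterol synthesis leaned the same way as the interferon response, with smaller changes. Of 25 tested genes 16 were lower in dormant melanoma and higher in dormant leukemia, 7 lower in both and 2 higher in both, with medians of -0.40 and 0.05. Hmgcs1, which makes the precursor HMG-CoA, changed by -0.47 ± 0.22 in melanoma (adjusted p = 0.381) and by 0.83 ± 0.20 in leukemia (adjusted p = 0.0446), a difference of -1.30 ± 0.30 (adjusted p = 0.0324). Tm7sf2, a sterol reductase gene, fell in melanoma from 1.78, 1.64 and 2.02 to 1.19, 0.80 and 0.65 (adjusted p = 0.00486) and differed by -0.99 ± 0.23 (adjusted p = 0.0374). These 2 of 25 were the calls in the list; 0.715% of all genes were called in that direction. Averaged over the list, the B16-D arrays lay between -0.44 and -0.35, below all B16-M arrays, while the leukemia arrays overlapped, with J365-p20 between -0.05 and 0.23 and M0-p20 between -0.14 and 0.21. Without J365-p20 replicate 0 the leukemia median was -0.08. Hmgcs1 and Tm7sf2 lost their calls without 8 and 10 of the 13 arrays in turn (adjusted p up to 0.106 and 0.124). Hmgcs1 kept its call without B16-M replicate 1, B16-D replicate 0, M0-p20 replicates 0 and 1 and J365-p20 replicate 1, and Tm7sf2 without B16-M replicate 1, B16-D replicate 0 and M0-p20 replicate 1.

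Glycolysis and the hypoxia response leaned the opposite way. Of 24 tested glycolytic genes 17 were higher in dormant melanoma and lower in dormant leukemia (17.5% of all genes were), with medians of 0.34 and -0.18. Slc16a3, the lactate exporter MCT4, rose in melanoma from 0.15, -0.27 and 0.41 to 2.07, 2.60 and 1.44, 3.82-fold (adjusted p = 0.00344), changed by -0.20 ± 0.31 in leukemia (adjusted p = 0.939) and was the 1 gene whose change differed (2.13 ± 0.46, adjusted p = 0.02; 0.62% of all genes in that direction). It lost this call without B16-M replicate 1, B16-D replicate 1 or J365-p20 replicate 1 (adjusted p from 0.068 to 0.0762). The hexokinase gene Hk1 rose in melanoma by 1.09 ± 0.24 (adjusted p = 0.0276) and differed by 1.35 ± 0.34 (adjusted p = 0.0562). Pdk1, whose product keeps pyruvate out of the mitochondria, had changes of 1.33 and -0.48 (difference adjusted p = 0.245). For the central enzymes the differences were small, 0.27 ± 0.28 for Gapdh, 0.70 ± 0.41 for Pkm and 0.20 ± 0.19 for Ldha, none past the threshold. Of 18 hypoxia response genes 13 were higher in dormant melanoma and lower in dormant leukemia, with medians of 0.15 and -0.25. The melanoma median was 0.02 with the slide as a block. The median difference of 0.42 became 0.015 without J365-p20 replicate 0. In this list 0 genes were called in any comparison by limma, and at an unadjusted p under 0.05 it held 1 melanoma change, 1 leukemia change and 3 differences. The difference was 1.13 ± 0.51 for Vegfa and 1.504 ± 0.69 for Bnip3 (adjusted p = 0.568 and 0.592).

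Of the 22 tested genes of the ATF4 stress response, 10 were lower in dormant melanoma and higher in dormant leukemia and 9 higher in both (medians -0.04 and 0.31), and Cth, described with the largest differences, was the 1 called (0.715% of all genes in that direction). The melanoma side of this list was uneven, with B16-D replicate 0 at 0.83 and replicates 1 and 3 at -0.38 and -0.47 against the B16-M mean; without replicate 0 the melanoma median was -0.25, and with replicate 0 as the sole B16-D array it was 0.74.

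The leukemia side of glycolysis and hypoxia rested on few arrays. The glycolysis average was -0.67 on M0-p20 replicate 0 and -0.58 on J365-p20 replicate 0, and reached 0.36 and 0.14 on other arrays of these lines. Both low arrays carry replicate number 0. They lie on slide 2, which also holds M0-p20 replicate 3. On the 2 low arrays the hypoxia average was -0.91 and -0.86, so a parental and a dormant array were low together and the lines overlapped. Without J365-p20 replicate 0 the glycolysis median in leukemia was 0.08 and the hypoxia median 0.08, and without M0-p20 replicate 0 they were -0.38 and -0.63. The melanoma side did not overlap for glycolysis, with B16-D at 0.29 to 0.42 and B16-M at -0.10 to 0.05.

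**Figure D4:**
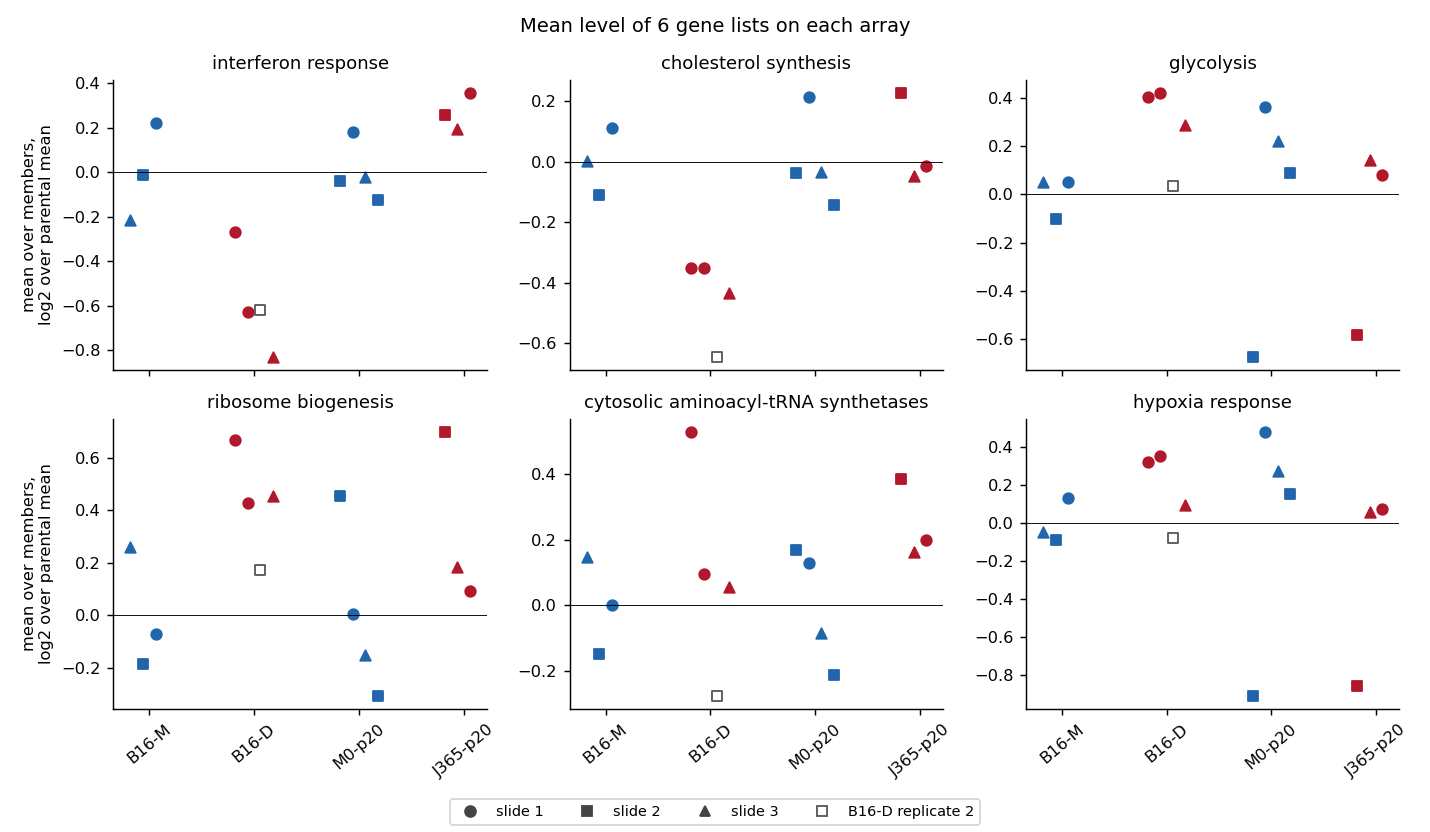
Average over the tested members of 6 gene lists on each array (log2, set to the mean of the parental line, y axis) in B16-M, B16-D, M0-p20 and J365-p20, with marker shapes for the 3 slides and an open marker for B16-D replicate 2. The interferon response separates both pairs of lines in opposite directions, whereas the leukemia arrays overlap for glycolysis, hypoxia, cholesterol synthesis and ribosome biogenesis.

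Ribosome biogenesis had the largest share of members higher in both dormant lines, 94.7%, of the 38 lists. Of 38 tested genes 36 were higher in both dormant lines (29.2% of all genes were), with medians of 0.56 in melanoma and 0.40 in leukemia, and 0 differences between the models were called by limma (1 at an unadjusted p under 0.05). Npm1, the nucleolar chaperone nucleophosmin, and Polr1e, a subunit of RNA polymerase I, rose in melanoma by 0.63 and 0.79 (adjusted p = 0.0192 and 0.0259), and Taf1d, a factor for the same polymerase, rose in leukemia by 0.66 (adjusted p = 0.0369). No member passed in both models. Nucleolin, Ncl, changed by 0.66 and 0.45, and the nucleolar GTPase gene Gnl3 by 0.69 ± 0.19 and 0.65 ± 0.18 (adjusted p = 0.0857 and 0.0888). Under the looser rule that both changes share a sign at an unadjusted p under 0.05 and that their mean passes the adjusted threshold, 9 of the 38 rose in both, where 210 of all genes did (1.06%). The list average lay between 0.43 and 0.67 in B16-D and between -0.19 and 0.26 in B16-M; in leukemia J365-p20 at 0.09 to 0.70 overlapped M0-p20 at -0.31 to 0.45. Without J365-p20 replicate 0 the leukemia median was 0.18, and without M0-p20 replicate 0 it was 0.54. The factor Myc, which drives ribosome genes in many tumors, rose in melanoma by 1.12 ± 0.22 (adjusted p = 0.011) and changed by 0.078 ± 0.21 in leukemia (adjusted p = 0.97), and the difference was 1.04 ± 0.30 (adjusted p = 0.132).

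Other lists of growth genes had the same lean with smaller medians. The cytosolic aminoacyl-tRNA synthetases were higher in both lines for 18 of 20 genes (medians 0.25 and 0.27), the respiratory chain for 28 of 38 (0.11 and 0.13), heat shock proteins for 11 of 14 (0.24 and 0.23), G1/S and DNA replication for 24 of 38 (0.19 and 0.15), and nucleotide synthesis for 21 of 32 (0.36 and 0.19). The melanoma median was 0.07 for the synthetases without B16-D replicate 0 and -0.01 for the respiratory chain with quantile normalization. Of these lists only nucleotide synthesis held called differences, 2 of 32 (0.62% of all genes in that direction). Adssl1, an adenylosuccinate synthase gene, rose in melanoma from -2.35, -1.97 and -1.42 to 1.90, 1.27 and 1.01 and read 2.87, 4.71, 4.39 and 4.13 in M0-p20 and 3.16, 3.64 and 3.77 in J365-p20, a difference of 3.81 ± 0.59 (adjusted p = 0.000833). Ak4, a mitochondrial adenylate kinase gene, went from -1.82, -2.04 and -1.71 to 1.15, 1.22 and 1.11 in melanoma and changed by -0.23 ± 0.29 in leukemia (adjusted p = 0.917), a difference of 3.25 ± 0.43 (adjusted p = 0.000157). In both genes the dormant melanoma arrays lay nearer than the parental ones to the leukemia arrays of the same probe. Aprt, Uck2 and Dctd, genes of base and nucleoside salvage, also rose in melanoma by 0.94, 0.62 and 0.76 (adjusted p = 0.0194, 0.0194 and 0.0424). The mitosis list had medians of 0.02 and -0.03 over 30 genes and 0 calls by limma in either model or in the difference; at an unadjusted p under 0.05 it held 0, 4 and 0.

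**Figure D5:**
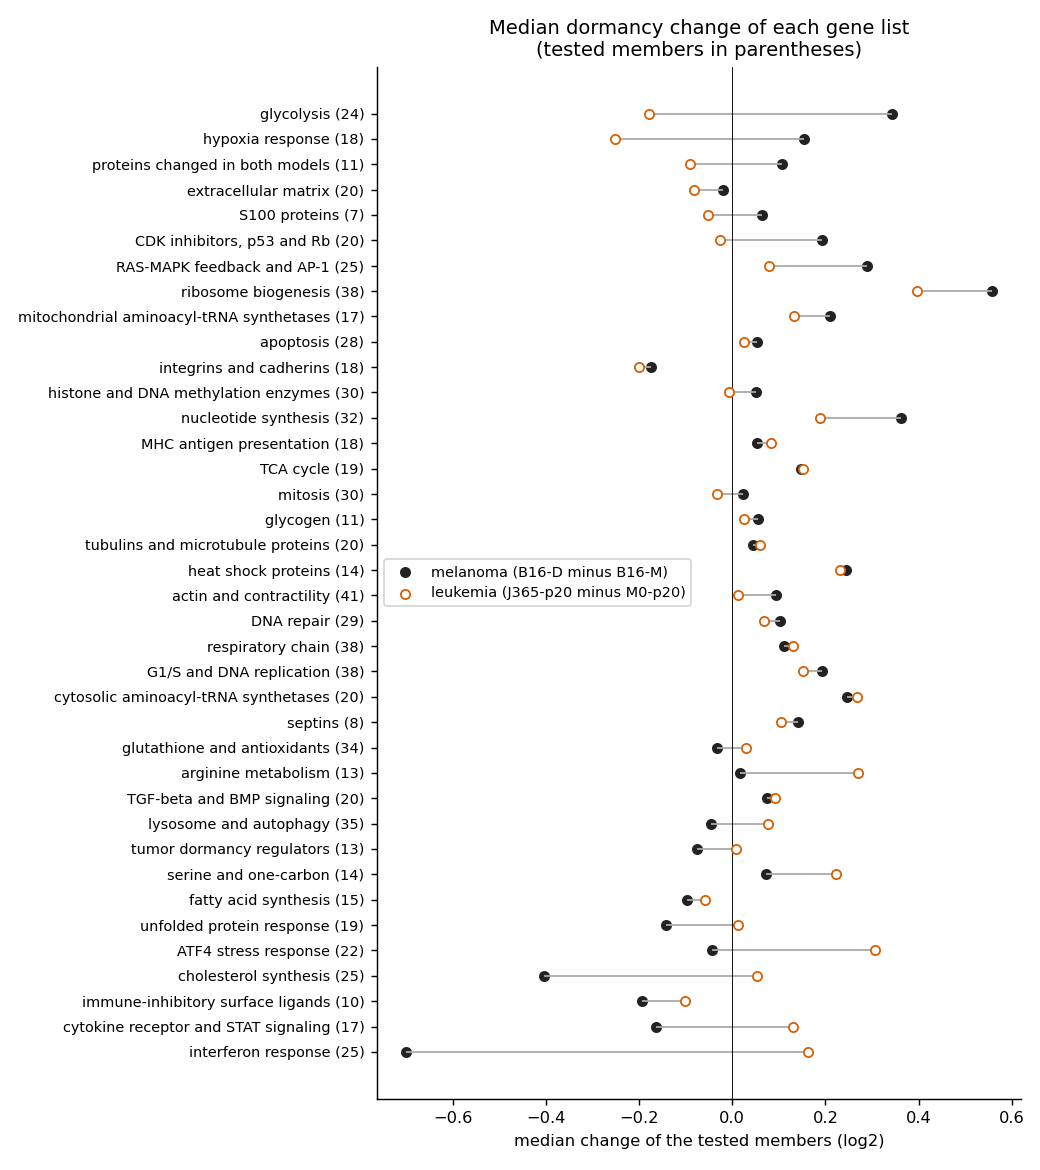
Median dormancy change of each gene list in melanoma and in leukemia (log2, x axis), joined by a line for each list (y axis). Lists on which both points lie above 0, such as ribosome biogenesis (0.56 and 0.40), moved together, and the interferon response (-0.70 and 0.16) has the widest gap between its points.

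The 11 genes with shared changes give the other side of the comparison, and 9 of them have a symbol. Dhrs2, a short-chain dehydrogenase gene, rose in both lines: from 1.02, 0.24 and 0.62 to 2.98, 2.64 and 2.78 in melanoma (4.51-fold, adjusted p = 1.53e-05), and from below background in M0-p20 to -0.94, -1.06 and -0.90 in J365-p20, at least 13-fold (adjusted p = 4.47e-11). It was also 1 of 2 shared genes whose size of change differed (-2.49 ± 0.31, adjusted p = 8.09e-05). This difference was 0.015 with the normexp background correction (adjusted p = 0.998). Ftsj3, a ribosomal RNA methyltransferase gene, rose by 0.61 ± 0.15 in melanoma and 0.65 ± 0.14 in leukemia (adjusted p = 0.0449 and 0.0205), and Snhg5, a host RNA of small nucleolar RNAs, by 1.03 ± 0.13 and 0.50 ± 0.12 (adjusted p = 0.000194 and 0.0479). Their differences between the models were -0.036 ± 0.21 and 0.53 ± 0.18. With the mean of all 3 probes of Ftsj3 neither change was called (adjusted p = 0.278 and 0.683).

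Shared decreases were found for 6 genes with a symbol. Sema7a, a membrane-anchored semaphorin, fell from -0.23, -0.77 and -0.99 to -2.76, -2.35 and -2.11 in melanoma (3.34-fold, adjusted p = 0.00237) and was at least 1.33-fold lower in J365-p20, where it was not well above background (adjusted p = 0.0315). F11r, the junctional adhesion molecule A, fell by 1.09 and 1.30 (adjusted p = 0.0269 and 0.00315). Bcan, a matrix proteoglycan gene, fell from 3.89, 4.12 and 4.22 to 3.53, 2.53 and 2.84 in melanoma and from -1.91, -1.22, -1.21 and -1.49 to -3.58, -3.63 and -3.46 in leukemia (adjusted p = 0.0483 and 5.49e-05). In each of these 3, and in the other shared genes, the dormant and parental arrays did not overlap in either model, which the choice by p-value favors. Cd248, the gene of endosialin, fell by 0.99 in melanoma and was at least 1.41-fold lower in leukemia (adjusted p = 0.0485 and 0.0261). Tmem184a was at least 2.48-fold lower in dormant melanoma and 3.39-fold lower in dormant leukemia (adjusted p = 0.00424 and 0.00266), and Fam160a1 fell by 1.46 and 2.11 (adjusted p = 0.012 and 0.000104). With B16-D replicate 2, where Fam160a1 read 0.63, its melanoma change was -0.44 (adjusted p = 0.959). With normexp the leukemia changes of Sema7a, Cd248 and Snhg5 (adjusted p = 0.405, 0.528 and 0.22) and the melanoma changes of Cd248, Tmem184a and Ftsj3 (0.079, 0.244 and 0.127) were not called. Dhrs2 and Tmem184a kept both calls whichever single array was left out among the omissions in which they were tested. The melanoma change was lost without 2 of the 13 arrays in turn for Fam160a1, 5 for F11r, 9 for Ftsj3, 10 for Cd248 and 11 for Bcan (adjusted p up to 0.071, 0.155, 0.238, 0.239 and 0.236), and the leukemia change without 2 for Sema7a, 4 for Ftsj3, 5 for Cd248 and 9 for Snhg5 (up to 0.157, 0.17, 0.125 and 0.191).

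The largest differences of all were mostly changes called in 1 tumor. On the negative side, where the leukemia change was the higher one, most of the largest lay in genes that rose in dormant leukemia and had no called change in melanoma. Intu, a planar polarity gene needed for cilia, read -3.52, -2.90, -2.96 and -3.92 in M0-p20 and 2.47, 3.00 and 3.23 in J365-p20, 74.7-fold higher (adjusted p = 6.35e-11), against -0.42, -0.64 and -0.67 in B16-M and 0.60, -0.61 and -0.85 in B16-D. Ass1, the argininosuccinate synthase of arginine synthesis, read -2.07, -2.81, -2.23 and -1.95 in M0-p20 and 3.18, 2.91 and 3.08 in J365-p20, 40-fold higher (adjusted p = 2.04e-08). In melanoma Ass1 was 3.42, 3.01 and 3.40 in the parent and 4.61, 2.64 and 2.60 in the dormant line, where replicate 0 alone was above the parent. The differences were -5.93 ± 0.43 and -5.31 ± 0.55 (adjusted p = 5.5e-08 and 7.89e-06). Cth, the cystathionine lyase that makes cysteine, was below background in M0-p20 and at -0.62, -1.55 and -1.52 in J365-p20, at least 10.8-fold higher (adjusted p = 7.32e-10), with a melanoma change of 0.15 ± 0.34 (adjusted p = 0.866). Fcer1g, the shared signaling chain of Fc receptors, went from -1.96, -1.19, -1.43 and -1.92 to 1.47, 1.40 and 1.46 in leukemia (adjusted p = 2.76e-09). The transcription factor gene Gcm2 rose in leukemia by 3.80, and Dab2ip and Jcad, a RAS GTPase-activating gene and a junction gene that were below background in M0-p20, were at least 12.1-fold and 3.76-fold higher in J365-p20. Syne2, a nuclear envelope gene, rose in leukemia by 3.16 (adjusted p = 0.000713). Among the largest negative differences Oas2 and Oas1g, described above, fell in melanoma as well, and Mamdc2 was at least 2.87-fold lower in dormant melanoma (adjusted p = 1.89e-07), but with B16-D replicate 2, which read -3.19, the adjusted p of its difference was 0.0934. With normexp the differences of Jcad and Syne2 lost their calls (adjusted p = 0.0596 and 0.169).

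On the positive side, several genes above background in M0-p20 were below it in J365-p20. Ddc, the aromatic amino acid decarboxylase that makes dopamine and serotonin, read -0.77, 0.95, 0.59 and 0.54 in M0-p20 and was below background on all J365-p20 arrays, at least 35.5-fold lower (adjusted p = 1.43e-11). Rab38, a GTPase of melanosome transport, was at least 50.5-fold lower in J365-p20 (adjusted p = 2.27e-16), while in melanoma it stood at 6.33, 6.43 and 6.62 in B16-M and 6.53, 6.41 and 6.29 in B16-D. The melanoma arrays of Rab38 overlapped, and its leukemia arrays did not. Uaca and Sh2b2 were at least 11.1-fold and 14.2-fold lower (adjusted p = 6.55e-16 and 2.22e-09), and Tnnt1, Exoc3l4 and Krba1 fell 12.6-fold, 11.8-fold and 10.1-fold (adjusted p = 6.09e-11, 1.37e-08 and 0.000141). Other large positive differences came from a rise in melanoma alone. Rcn3, a calcium-binding protein of the secretory path, rose from -4.64, -4.24 and -4.24 in B16-M to -0.0042, 0.41 and 0.38 in B16-D (adjusted p = 1.2e-06) with a leukemia change of 0.39 ± 0.37 (adjusted p = 0.869). S100a6, a calcium-binding protein gene, rose from -4.06, -2.66 and -2.26 to 3.23, -0.072 and -0.065, with replicate 0 more than 3 log2 units above the other dormant arrays, and changed by -0.73 ± 0.64 in leukemia. Its difference was 4.76 ± 0.93 (adjusted p = 0.00871), and 3.66 without B16-D replicate 0 (adjusted p = 0.00485).

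Further list members whose change differed are given by role. Among matrix and growth-restraint genes, Emilin1, an elastic fiber protein, was below background in B16-M and at -1.89, -1.84 and -2.18 in B16-D, at least 7.64-fold higher (adjusted p = 1.9e-11), with a leukemia change of -0.012 ± 0.19 (adjusted p = 0.998). Thbs1, thrombospondin-1, an inhibitor of vessel growth linked to dormancy, was at least 2.73-fold lower in J365-p20 than in M0-p20 (adjusted p = 5.8e-06) and changed by -0.076 ± 0.41 in melanoma. Tgfbr3, a co-receptor of transforming growth factor beta, was at least 1.28-fold lower in J365-p20 (adjusted p = 7.86e-06). These 2 were the calls among 13 tested dormancy regulators (0.62% of all genes in that direction). Both genes were above background on 3 of the 4 M0-p20 arrays, and with normexp neither difference was called (0.85 and 0.61 against 3.63 and 2.60, adjusted p = 0.317 and 0.244). In the cytoskeleton, Myo1e and Mapre3 fell in leukemia by 3.01 and 3.61 (adjusted p = 7.06e-07 and 6.56e-09), Tmsb10, an actin-binding thymosin, rose in melanoma by 0.99 (adjusted p = 0.00137), and Coro1a, a coronin of blood cells, fell in melanoma by 2.16 (adjusted p = 0.000145). With B16-D replicate 2, at -1.73, the difference in Coro1a was not called (adjusted p = 0.279). Jak3, a kinase of cytokine receptors, fell in melanoma by 1.18 (adjusted p = 0.0424) and changed by 0.82 in leukemia, and its difference too was not called with replicate 2 (adjusted p = 0.136). Of the glutathione genes, Gsta4 rose in melanoma by 4.63 and Gstt3 fell by 1.14 (adjusted p = 1.33e-07 and 2.46e-05), with leukemia changes of -0.048 and -0.11. Trp53inp1, Atr and Xpc, genes of the p53 and DNA damage responses, differed by 1.599, 0.74 and 0.85 (adjusted p = 0.0327, 0.0433 and 0.0425), and lost these calls without 10, 11 and 11 of the 13 arrays in turn (up to 0.0964, 0.135 and 0.125).

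By mass spectrometry, the study reports proteins whose abundance differed between dormant and parental cells in both models. It gives SEPTIN9 and CAPG as the only ones that were higher in both dormant lines. Protein abundance was not measured on these arrays, which show RNA only. At the RNA level the genes of these 11 proteins had differences from -0.28 to 0.67 with adjusted p of 0.666 or higher. By limma 0 of the 11 were called in the difference or in either model, and at an unadjusted p under 0.05 there were 0 differences, 1 melanoma change and 0 leukemia changes. Of the glycolytic members, Eno1 changed by 0.35 ± 0.21 and -0.14 ± 0.19, Pgk1 by 0.14 ± 0.17 and -0.17 ± 0.16, Tpi1 by 0.21 ± 0.29 and -0.38 ± 0.27 and Aldoa by 0.32 ± 0.27 and -0.18 ± 0.25. All 4 were higher in dormant melanoma and lower in dormant leukemia by less than the test could call. Capg, an actin-capping protein gene, was higher in both (0.84 ± 0.25 and 0.48 ± 0.23), and Vps35, of the retromer, had the difference nearest to the threshold (-0.28 ± 0.14).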

How the data were processed

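RNA was labelled and hybridised by the authors to 1-colour Agilent mouse arrays, 8 on each of 3 slides, each slide holding arrays of all 4 lines. The deposited scanner files give the intensity of each of 62976 spots from Agilent Feature Extraction 10.7.3.1 (per the file headers), with gProcessedSignal already background-subtracted. The deposited value table of the series holds the same intensity on all 24 arrays. The study's methods name GeneSpring software for statistics and filtering; the normalization and the test are not given in the sources used here.

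Control spots (3671) and outlier spots (2468 over all arrays) were left out, log2 of gProcessedSignal was taken minus the array's 75th percentile, spots of a probe were averaged, and the brightest probe was kept for each gene, named from the array's accession through RefSeq (22911 symbols, and 22711 transcripts without one). Number of arrays limits the precision. One limma 3.58.1 model (R 4.3.3) of 23 arrays (the 4 lines without B16-D replicate 2, and 10 arrays of the second-generation lines, for the spread) gave each dormancy change and their difference, with Benjamini-Hochberg adjustment over all 19853 genes. Residual degrees of freedom were 16 and the prior 2.15. Tested on simulated data (19795 genes, 50 changed genes of each size), differences of 0.5, 1, 2 and 3 on the log2 scale were recovered for 0%, 24%, 72% and 86%, with 1 false call. Bounds written "at least" set the brighter group against the lowest signal above background. Motif counts used RefSeq promoter windows from 250 bases before to 50 after the start.

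The members, the 38 gene lists and 6 marker lists were chosen with earlier results of these data known; 9 list symbols were not matched to the array. Genes named were the 8 largest differences each way above background on all 13 arrays, the 6 largest each way among the others, up to 8 of each direction with opposite or shared changes, the genes of the study's 11 proteins, called list members and up to 4 more per list; clones and unnamed transcripts were passed over. Other list members named here, such as Ifngr1, Trim25, Npm1 and Taf1d, were chosen after their values were seen. Alternatives, 25 for each result, were other backgrounds (normexp, offset 50, on the median signal, as mean signals were not used here), quantile scaling, probe rules and filters, slide or replicate as a block, fewer or more arrays, and each array left out. The values of some list members are not reported here.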

Additional observations from a re-analysis of the deposited data

Results flagged for a closer look

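The difference of the dormancy changes between the tumors (log2, limma interaction, adjusted p under 0.05) was met by 265 genes, and the named ones are listed here with their difference. For a gene not above background in a line, such as Ddc, Rab38, Dhdh, Aldh1a3 or Emilin1, the difference uses signal below background. Its size and rank are then uncertain. With the leukemia change the higher one, the largest were Intu (-5.93), Cth (-5.50), Ass1 (-5.31), Dab2ip (-4.26), Oas2 (-4.20), Jcad (-4.13), Mamdc2 (-4.09), Gcm2 (-3.96), Syne2 (-3.60) and Oas1g (-3.20). Next in size came Fcer1g (-2.97), Usp18 (-2.79), Oas1f (-2.72), Havcr2 (-2.54), Dhrs2 (-2.49), Tmcc3 (-2.48), Oas1a (-2.46), Coro1a (-2.42), Jak3 (-2.002) and Padi2 (-1.56). Smaller ones of this sign were Ifi27 (-1.49), Ddx58 (-1.38), Hmgcs1 (-1.30), Parp14 (-1.22), Irf9 (-1.11), Gstt3 (-1.03) and Tm7sf2 (-0.99).

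With the melanoma change the higher one, the largest were Ddc (7.99), Rab38 (7.82), Dhdh (7.65), Aldh1a3 (6.09), Sh2b2 (5.82), Uaca (5.51), Slc2a4 (5.11), Emilin1 (5.02), S100a6 (4.76) and Lgals3 (4.74). They were followed by Gsta4 (4.68), Krba1 (4.59), Dlg3 (4.55), Slc44a3 (4.49), Tnnt1 (4.36), Rcn3 (4.25), Exoc3l4 (4.01), Adssl1 (3.81), Myo1e (3.65) and Thbs1 (3.63). The smallest of this sign were Mapre3 (3.36), Ak4 (3.25), Tgfbr3 (2.60), H2-DMb1 (2.51), Slc16a3 (2.13), Agpat4 (1.61), Trp53inp1 (1.599), Tmsb10 (1.24), Xpc (0.85) and Atr (0.74).

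In the 4 M0-p20 arrays, 1 array stood far from the other 3 for 5 named genes, its gap taking a share of the range above Dixon's critical value for 4 arrays: Cd248 (0.872), Jak3 (0.843), Krba1 (0.857), Padi2 (0.868) and Thbs1 (0.874). Chance flags about 1 in 20 groups of arrays. The parental M0-p20 array that stood apart was replicate 1 for Cd248, above the others, and replicate 0 for Jak3, Krba1, Padi2 and Thbs1, below the others.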

How the results depend on the processing

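Against the 265 genes whose change differed between the models, the count was 126 in a fit of the 4 compared lines alone, 464 with the slide as a block, 50 with the replicate number as a block and 535 without the filter on dim probes. Genes with opposite changes numbered 13, and 6, 27 and 2 under the first 3 of these, 8 with normexp and 8 among probes above background on every compared array. Genes with shared changes numbered 11, and 4, 40 and 0 under the same 3 (limma; 201 at an unadjusted p under 0.05 with the replicate block), 5 with normexp, 6 above background on every array, 6 with the arrays that have no date in their titles (B16-D replicate 0 alone for the dormant melanoma), and 292 when the mean of both changes was tested. The melanoma count of 331 became 125, 640, 21 and, without the filter, 518, and the leukemia count of 322 became 117, 679, 65 and 531, and 197 with the undated arrays. Leaving out 1 array at a time gave 199 to 355 differences, 8 to 19 opposite, 2 to 26 shared, 146 to 428 melanoma and 158 to 573 leukemia genes. Moves of more than 1.5 times came without B16-M replicate 1 (8 opposite, 4 shared, 146 melanoma) or 2 (8, 2 and 155) and B16-M replicate 0 (7 shared). They also came without B16-D replicate 1 (3 shared, 167 melanoma) or 3 (6 shared), and without M0-p20 replicate 0 (26 shared, 573 leukemia), 2 (6 and 201) or 3 (6 and 185). The last were J365-p20 replicates 0 (5 and 158), 1 (6 and 190) and 3 (5 shared). The cause was not tested. The difference in Dhrs2 turned from -2.49 to 0.015 with normexp, and it was the only result of a named gene that changed sign in the alternatives run. With the slide as a block 99 of 99 results of named genes kept their call, while 65 lost it with the replicate number as a block, 28 in the fit of the 4 lines alone and 30 of 94 with the undated arrays. With normexp 19 lost it, among them Parp14, Tm7sf2, Jak3 and Xpc (adjusted p = 0.108, 0.114, 0.108 and 0.0919), and 44 values became smaller by more than 1.5 times. Deviations of same-numbered arrays correlated at 0.273 and -0.00348 in melanoma and 0.52, -0.0945 and 0.0979 in leukemia. The higher of these values were those of replicate 0 (0.273 and 0.52), and the other same-numbered pairs showed little correlation. The pair at 0.52 also shares slide 2. Deviations of arrays on the same slide correlated at 0.359 to 0.779 on slide 3, -0.465 to 0.777 on slide 1 and -0.0392 to 0.595 on slide 2. The main model held no slide term, and its B16-D arrays lay on slides 1 and 3, so the arrays are not fully independent. What the replicate number marks was not tested. The block leaves 3 residual degrees of freedom and was not used for the main results. Probes near background give only bounds, and changes under 1 on the log2 scale were mostly not detectable.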
